A study of Mus musculus with 15 samples.

Results

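Dlk1, Meg3, Rian, Mirg and Dio3 belong to the imprinted Dlk1-Dio3 domain on the distal part of mouse chromosome 12, and their transcripts were followed in lung dysplasia of SP-C/c-raf mice. The array annotation gave 19 of 45037 probe sets to 1 of these genes only: 2 to Dlk1, 11 to Meg3, 4 to Rian and 2 to Mirg. It gave 0 to Dio3, so Dio3 was not measured here, and 0 probe sets were shared between a member and another gene. These 4 of 18194 measured genes were chosen by their signals in the 3 groups and by how they varied together within groups. Their differences between groups are therefore a description, no p-value is given for them, and nothing is read from how many of them a fit called.

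The data came from 15 Affymetrix Mouse Genome 430 2.0 arrays in 3 groups of 5. Dysplasia was isolated from SP-C/c-raf mice aged 5 to 7 months, transgenic unaltered lung from the same dysplasia-bearing mice, and non-transgenic lung from wild-type littermates aged 7 to 10 months. In SP-C/c-raf mice the surfactant protein C promoter drives c-Raf in alveolar epithelium, chiefly in type 2 cells. Both transgenic groups therefore carried the transgene, and the mice had been kept on the C57BL/6 background after breeding on a C57BL/6/DBA/2 hybrid. All tissue was collected by laser microdissection from frozen sections, and RNA was amplified before labelling. In such tissue, fewer cells of a type and less RNA per cell cannot be told apart, and the array does not tell the maternal from the paternal allele.

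In an imprinted domain, each imprinted gene is read mainly from 1 parental chromosome, under the control of DNA methylation set in the germ line. In this domain the protein-coding genes Dlk1, Rtl1 and Dio3 are read from the paternal chromosome, and the long non-coding RNAs Meg3, Rian and Mirg from the maternal one. The domain is best known for high activity in the embryo and placenta, and Dlk1 is switched off in most tissues after birth. Dlk1 is a transmembrane protein with EGF repeats related to the Notch ligands. Meg3, also called Gtl2, opens the maternal transcription unit. Rian carries small nucleolar RNAs and microRNAs, and Mirg carries a large cluster of microRNAs. Dio3 inactivates thyroid hormone.

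The window before the start of Dlk1, which opens the paternal side, and the one before the upstream start of Meg3, which opens the maternal side, are shown because these transcripts moved together across the groups. The sequences are those of RefSeq on GRCm38.p6. Each holds 250 bases on the plus strand and ends at the base before the start, and capitals mark the motifs that a search found.
Dlk1, chr12:109452573-109452822: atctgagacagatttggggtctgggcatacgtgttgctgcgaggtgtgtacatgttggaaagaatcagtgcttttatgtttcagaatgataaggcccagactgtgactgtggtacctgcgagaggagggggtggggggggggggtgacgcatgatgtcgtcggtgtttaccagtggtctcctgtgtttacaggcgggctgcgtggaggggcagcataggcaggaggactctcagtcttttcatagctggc
Meg3, chr12:109540746-109540995: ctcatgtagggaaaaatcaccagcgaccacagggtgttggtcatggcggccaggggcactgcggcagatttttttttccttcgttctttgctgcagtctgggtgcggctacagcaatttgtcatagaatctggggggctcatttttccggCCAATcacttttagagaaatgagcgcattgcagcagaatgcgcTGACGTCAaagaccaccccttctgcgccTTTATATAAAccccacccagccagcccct
The search covered both strands for the GC box GGGCGG, the CCAAT box CCAAT, the TATA box TATAAA, the AP-1 site TGANTCA, the cAMP response element TGACGTCA and the Ets doublet GGAAGT. The Dlk1 window held 0 matches to these letters. The Meg3 window held 1 CCAAT, 1 TGACGTCA and 2 TATAAA, the last on opposite strands of the run TTTATATAAA. Among 32851 promoter windows of this length, 33.8% held CCAAT, 1.55% TGACGTCA and 12.4% TATAAA. The letters GGGCGG were found in 32.7%, TGANTCA in 6.75% and GGAAGT in 19.7% of them. The Dlk1 window had 8 CpG and 54.8% GC, and the Meg3 window had 10 CpG and 52.4% GC, against a median of 6 CpG over all windows. A match is a description of letters, and binding was not measured.

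RefSeq places 113 mature microRNAs of 61 hairpins between Dlk1 and Dio3. Of these, 3 mature microRNAs lie in the annotated Meg3 transcript unit, 6 in Rian and 19 in Mirg. The array did not measure microRNAs, so 4 are shown as examples of what the host transcripts carry, with the seed (bases 2 to 8) in capitals.
mmu-miR-770-5p, in Meg3: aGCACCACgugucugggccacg
mmu-miR-370-3p, in Rian: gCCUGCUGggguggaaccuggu
mmu-miR-453, in Mirg: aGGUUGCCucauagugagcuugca
mmu-miR-496a-5p, in Mirg: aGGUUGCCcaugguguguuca
The last pair share the seed GGUUGCC.

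Some arrays stood apart from their labels and touch the results below. The sex-linked transcripts Xist and Kdm5d, Eif2s3y and Uty gave 3 male, 1 female and 1 mixed array in dysplasia, 4 male and 1 female in transgenic tissue, and 1 male and 4 female arrays in non-transgenic tissue. The mixed array was dysplasia 4, with Xist at 9674 and Kdm5d at 398. Transgenic 4, of the same number, had Xist at 85.0 and Kdm5d at 567. Transgenic 2 is titled as unaltered tissue, in a title that also holds the word corrected, but carries a tumor label in another field. Mean signal per array was 701 to 768 in dysplasia, 690.1 to 757 in transgenic tissue and 688 to 736 in non-transgenic lung. Alveolar type 2 markers, of which 7 of 8 were tested, were also read. The groups overlapped in these markers, so they cannot check 1 tissue label against another. Their summed signal was 113359.7 to 191985 in dysplasia, 105785 to 177412 in transgenic tissue and 97165 to 129379 in non-transgenic lung.

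Dlk1 had its lowest signals in non-transgenic lung and a higher level at each step. Its brightest probe set, 1449939_s_at, read 5723, 1555, 2996, 2712 and 4088 in dysplasia 1 to 5, 579, 872, 842, 515 and 982 in transgenic 1 to 5, and 52.1, 30.6, 62.7, 32.9 and 25.3 in non-transgenic 1 to 5. The 3 groups did not overlap, and dysplasia 1 was the highest and dysplasia 2 the lowest of its group. The means were 3415 ± 1574 in dysplasia, 758 ± 201 in transgenic tissue and 40.7 ± 15.9 in non-transgenic lung (SD, n = 5 each). Dysplasia was thus 4.51-fold above transgenic tissue, which was 18.6-fold above non-transgenic tissue. All 5 non-transgenic signals lay below 100, where signals are near the background of the array, so the size of the second ratio is not firm. As log2(signal + 50), a scale that compresses changes of low signals, the differences were 2.01 (SE 0.31) and 3.13 (SE 0.18). The other Dlk1 probe set, 1442724_at, read 33.9 to 67.1 in dysplasia, 5.18 to 27.6 in transgenic tissue and 4.52 to 33.8 in non-transgenic lung, below 100 on every array.

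Meg3 was measured by more probe sets than any other member. Its brightest, 1439380_x_at, read 8692, 9384, 10678, 9014 and 13283 in dysplasia 1 to 5, 1055, 1626, 1252, 1361 and 2296 in transgenic 1 to 5, and 609, 426, 535, 616 and 772 in non-transgenic 1 to 5. The groups did not overlap, and array 5 was the highest of each group. The means were 10210.1 ± 1876, 1518 ± 481 and 592 ± 126 for dysplasia, transgenic and non-transgenic tissue (SD, n = 5 each). Dysplasia was 6.73-fold above transgenic tissue (log2 difference 2.74, SE 0.20), and transgenic tissue was 2.57-fold above non-transgenic tissue (1.26, SE 0.20). Unlike Dlk1, Meg3 was well above 100 in non-transgenic lung.

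The Meg3 probe sets did not give 1 common fold. The 5 with a mean of at least 1000 in dysplasia gave dysplasia over transgenic ratios of 6.73 to 10.6, and the 4 tested ones below that level gave 2.26 to 10.4. The largest of these came from 1452183_a_at, with 6832, 6526, 7682, 6077 and 10579.5 in dysplasia, 535, 850.5, 668, 596 and 902 in transgenic and 226, 201, 284, 212 and 313 in non-transgenic tissue. It was 10.6-fold higher in dysplasia than in transgenic tissue and 2.87-fold higher in transgenic than in non-transgenic tissue. The smallest came from 1429257_at, with means of 225.1 in dysplasia, 99.7 in transgenic tissue and 83.8 in non-transgenic lung. Its dysplasia and transgenic signals overlapped. Among the other bright probe sets, 1452905_at averaged 8536 in dysplasia, 1033 in transgenic tissue and 428 in non-transgenic lung, and 1426758_s_at 3708, 467 and 189 in the same order. Both had separate groups and ratios near those of 1439380_x_at, 8.27 and 7.93 for dysplasia over transgenic tissue. The remaining tested probe sets were 1436713_s_at, 1428765_at, 1436057_at and 1452906_at, with ratios of 9.27, 9.58, 2.82 and 10.4. Their dysplasia arrays lay above all transgenic arrays, and in 3 of the 4, all but 1428765_at, transgenic and non-transgenic signals overlapped. The untested 1428764_at and 1429256_at averaged 186 and 111 in dysplasia, 52.5 and 38.3 in transgenic tissue, and 43.0 and 38.8 in non-transgenic lung.

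Rian had the same order of groups as Meg3. Its brightest probe set, 1452899_at, read 9360.2, 7012, 8995, 7101 and 8829.8 in dysplasia 1 to 5, 829.8, 1285, 986, 746 and 863 in transgenic 1 to 5, and 372, 330.4, 302, 240.2 and 284 in non-transgenic 1 to 5. The groups were separate, and their spread was small, with means of 8259.7 ± 1115 in dysplasia, 942 ± 210.2 in transgenic tissue and 306 ± 49.6 in non-transgenic lung (SD, n = 5 each). The ratios were 8.77 for dysplasia over transgenic tissue (log2 difference 3.08, SE 0.15) and 3.08 for transgenic over non-transgenic tissue (1.47, SE 0.15). A further Rian probe set, 1427580_a_at, read 1465, 1485, 751, 634 and 404 in dysplasia, 91.7, 270.1, 103, 98.1 and 41.6 in transgenic, and 14.2, 75.6, 26.6, 31.9 and 26.3 in non-transgenic tissue. Here arrays 1 and 2 were the highest in dysplasia and array 2 in the other groups. The dimmer 1440001_at averaged 201 in dysplasia, 49.8 in transgenic tissue and 52.9 in non-transgenic lung, so that transgenic and non-transgenic tissue stood side by side. The untested 1428055_at read 18.4 to 174 in dysplasia, 2.65 to 25.1 in transgenic tissue and 0.877 to 9.80 in non-transgenic lung.

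Mirg changed mainly between transgenic tissue and dysplasia. Its probe set 1457030_at read 775, 687, 1111, 604 and 1015 in dysplasia 1 to 5, 75.5, 127, 90.9, 99.7 and 95.6 in transgenic 1 to 5, and 64.6, 51.3, 48.7, 27.8 and 50.6 in non-transgenic 1 to 5. The groups did not overlap, although 4 of 5 transgenic signals and all non-transgenic signals were below 100. The means were 838 ± 217 in dysplasia, 97.8 ± 18.8 in transgenic tissue and 48.6 ± 13.2 in non-transgenic lung (SD, n = 5 each). The ratios were 8.57 for dysplasia over transgenic tissue (log2 difference 2.56, SE 0.16) and 2.01 for transgenic over non-transgenic tissue (0.59, SE 0.12). The other Mirg probe set, 1440097_at, gave 3.73 and 1.51 for the same ratios.

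**Figure D1:**
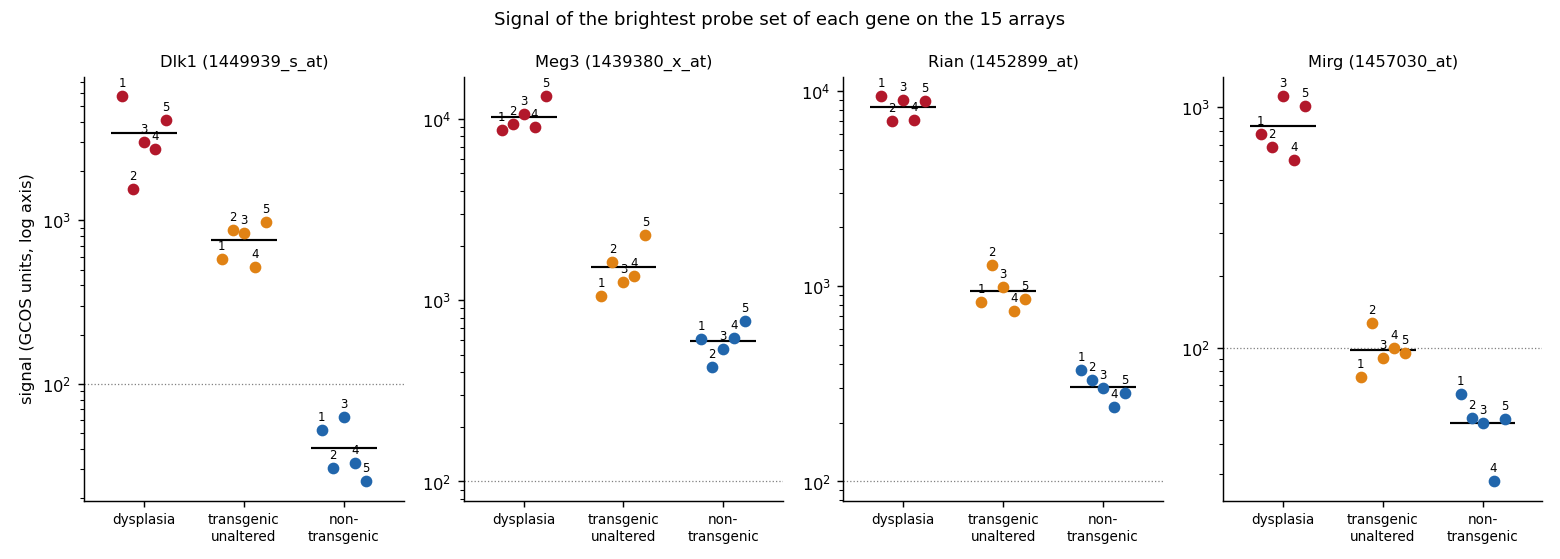
Signal (GCOS units, log axis with its own range in each panel) of the brightest probe set of Dlk1, Meg3, Rian and Mirg on each of the 15 arrays. Points are arrays with their number, bars are group means and the dotted line marks a signal of 100; dysplasia lies above transgenic and transgenic above non-transgenic tissue in all 4 genes, and Dlk1 has the lowest non-transgenic mean relative to its dysplasia mean (40.7 against 3415).

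Over all 19 probe sets, the mean was higher in dysplasia than in transgenic tissue in 19, and higher in transgenic than in non-transgenic tissue in 16. In dysplasia against transgenic tissue the groups did not overlap in 16 of 19, beside 6.63% of all 45037 probe sets in that direction. For dysplasia against non-transgenic tissue this held for 18 of 19 (8.68%), and for transgenic against non-transgenic tissue for 8 of 19 (1.76%). Of the 19, 15 had a mean signal above 100 over all arrays and entered the limma fit of 21658 probe sets. The last to enter was Rian 1440001_at, with a mean of 101.3, and the first left out was Meg3 1428764_at, with 93.7. A probe set that enters through a high level in dysplasia alone had to differ, so nothing is read from the counts over those tested.

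At an adjusted p under 0.05 in limma, and as a description only, the fit called 15 of 15 tested probe sets higher in dysplasia than in transgenic tissue (15.3% of all tested probe sets were called in that direction) and 15 of 15 higher in dysplasia than in non-transgenic tissue (20.7%). It called 7 of 15 higher in transgenic than in non-transgenic tissue (1.17%): 1 of 1 of Dlk1, 4 of 9 of Meg3, 1 of 3 of Rian and 1 of 2 of Mirg. With the array number as a block the count was again 7, but Mirg 1457030_at (0.59) was no longer called and Rian 1427580_a_at (0.92) was. The median log2 difference of the 15 was 2.52, 3.44 and 0.67 in these comparisons, against -0.01, -0.03 and -0.02 over all tested probe sets. Among the rises in transgenic over non-transgenic tissue, Dlk1 stood at rank 2 of 21658, Rian at 22, Meg3 at 44 and Mirg at 357. In dysplasia over transgenic tissue the ranks were 16 for Rian, 33 for Meg3, 54 for Mirg and 119 for Dlk1. The comparisons share groups, so these ranks are not independent of each other.

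The share of the whole difference between dysplasia and non-transgenic tissue that was already present in unaltered transgenic tissue was higher in Dlk1 than in the maternal transcripts on the log2 scale. As log2(signal + 50) it was 60.9% for Dlk1, 32.3% for Rian, 31.5% for Meg3 and 18.6% for Mirg, each by its brightest probe set. Over the 14 tested probe sets of Meg3, Rian and Mirg it ran between -3.84% and 32.3%. On the linear scale the same share was 21.3% for Dlk1, 9.63% for Meg3, 8.0% for Rian and 6.23% for Mirg. Dlk1 had the highest and Mirg the lowest share of these 4 probe sets on both scales. Of the 15 tested probe sets, 3 had a transgenic signal below 100 on all 5 arrays, and 8 a non-transgenic signal below 100 on all 5 arrays, where ratios are not firm.

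**Figure D2:**
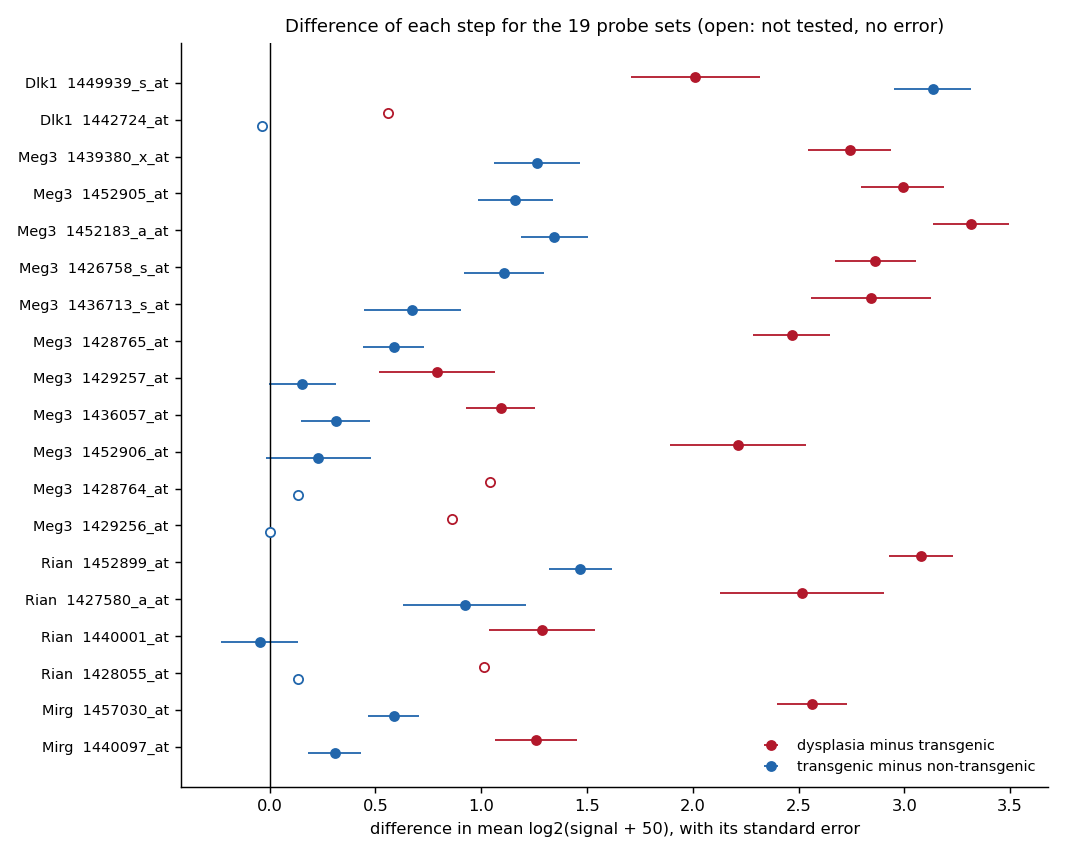
Difference in mean log2(signal + 50), with its standard error, for dysplasia minus transgenic (red) and transgenic minus non-transgenic tissue (blue), for the 19 probe sets. Open points were not tested and have no error; only for Dlk1 1449939_s_at does the blue point (3.13) lie to the right of the red one (2.01).

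Dysplastic and unaltered tissue of 1 number were compared as pairs, since the methods take both from the same mouse. Their deviations from the group means went together (correlation 0.219 to 0.773 over the 5 numbers). Same-numbered transgenic and non-transgenic arrays, of different mice, correlated by 0.135 to 0.793, so such a correlation cannot show a shared mouse. For number 4, with the lowest correlation of dysplasia with transgenic tissue, the sex-linked signals of these tissues differed as given above. Whether this pair came from 1 mouse was not tested. Dysplasia was higher in 5 of 5 pairs for each gene, which any pairing gives because the groups did not overlap. The pair ratios for Dlk1 were 9.88, 1.78, 3.56, 5.26 and 4.16 for numbers 1 to 5. For Meg3 they were 8.24, 5.77, 8.53, 6.62 and 5.79, and for Rian 11.3, 5.46, 9.12, 9.51 and 10.2. For Mirg they were 10.3, 5.40, 12.2, 6.06 and 10.6. Number 2, whose unaltered tissue carries the conflicting label, had the lowest ratio in all 4 genes, though in Meg3 number 5 was nearly the same. Dysplasia 2 was the lowest of its group for Dlk1 and Rian, and transgenic 2 the highest of its group for Rian and Mirg. The part of the label in these ratios was not tested. Without transgenic 2 the log2 differences of dysplasia over transgenic tissue were 2.07 for Dlk1, 2.78 for Meg3, 3.19 for Rian and 2.63 for Mirg. Without dysplasia 2 they were 2.26, 2.77, 3.14 and 2.62 for the same genes. Without dysplasia 4, the mixed array, they were 2.06, 2.78, 3.13 and 2.66 for the same genes.

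Transgenic and non-transgenic tissue also differed in the sex of the arrays. The female transgenic array read 842 for Dlk1, against 25.3 to 62.7 on the 4 female non-transgenic arrays. For Meg3 these values were 1252 against 426 to 772, for Rian 986 against 240.2 to 330.4, and for Mirg 90.9 against 27.8 to 51.3. The 4 male transgenic arrays read 515 to 982 for Dlk1, against 52.1 on the male non-transgenic array. For Meg3 they read 1055 to 2296 against 609, for Rian 746 to 1285 against 372, and for Mirg 75.5 to 127 against 64.6. The groups did not overlap in these probe sets, so any split of the arrays puts transgenic tissue higher. The split by sex, with 1 array on 1 side of each comparison, was therefore not a test of sex. With the Xist level as a covariate the log2 differences changed little for Dlk1 1449939_s_at (3.14), Rian 1452899_at (1.41) and Meg3 1452183_a_at (1.36), which limma called. The other Meg3 probe sets called without it had 1.15 for 1439380_x_at, 1.13 for 1452905_at and 1.07 for 1426758_s_at, and Mirg 1457030_at had 0.48, and these were no longer called. The count was thus 3 of 15 in place of 7, beside 0.508% of all tested probe sets in place of 1.26%. The non-transgenic mice were also older, and age and genotype cannot be told apart here.

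Part of the probe sets, members and others alike, moved with a measure of RNA integrity. This measure was not used to choose the members. Their variation within groups was used, and the slopes below rest on it, so for the members they are a description. The 5′ to 3′ signal ratio of beta-actin, a measure of how complete the amplified transcripts are, was 25.1% to 75.2% in dysplasia, 12.5% to 63.4% in transgenic tissue and 14.1% to 72.8% in non-transgenic lung. Arrays 1 and 2 were the highest and array 5 the lowest in each group, so array number and ratio cannot be told apart. A slope of log2(signal + 50) on the log2 ratio, with a mean for each group, was fitted in limma over all 15 arrays. It was called for 5 of 15 member probe sets, beside 24.5% of all tested probe sets, so such slopes are not particular to the members. Meg3 1439380_x_at fell with the ratio, with a slope of -0.30 per unit of log2 (SE 0.07, adjusted p = 0.00562), as did Meg3 1426758_s_at with -0.29 (SE 0.07, adjusted p = 0.00771). Both calls were also made with the array number of all groups, or of dysplasia and transgenic tissue, as a random block (adjusted p = 0.0234 and 0.0101 for the first, 0.0361 and 0.0159 for the second, in limma). The other 3 calls were lost with these blocks. They were Rian 1427580_a_at with 0.51 (SE 0.14, adjusted p = 0.014, and 0.0911 and 0.0555 with the blocks), Meg3 1452906_at with 0.36 (SE 0.12, adjusted p = 0.0447, and 0.153 and 0.104) and Meg3 1452183_a_at with -0.22 (SE 0.07, adjusted p = 0.0408, and 0.135 and 0.114), all in limma. Both upward slopes are thus among those lost. The share of all tested probe sets called with a block is not given here. Slopes of Dlk1 (1 tested) and Mirg (2 tested) were not called. The calls were also fewer without replicate 3 (3 of 15) and without replicate 5 (1 of 15).

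**Figure D3:**
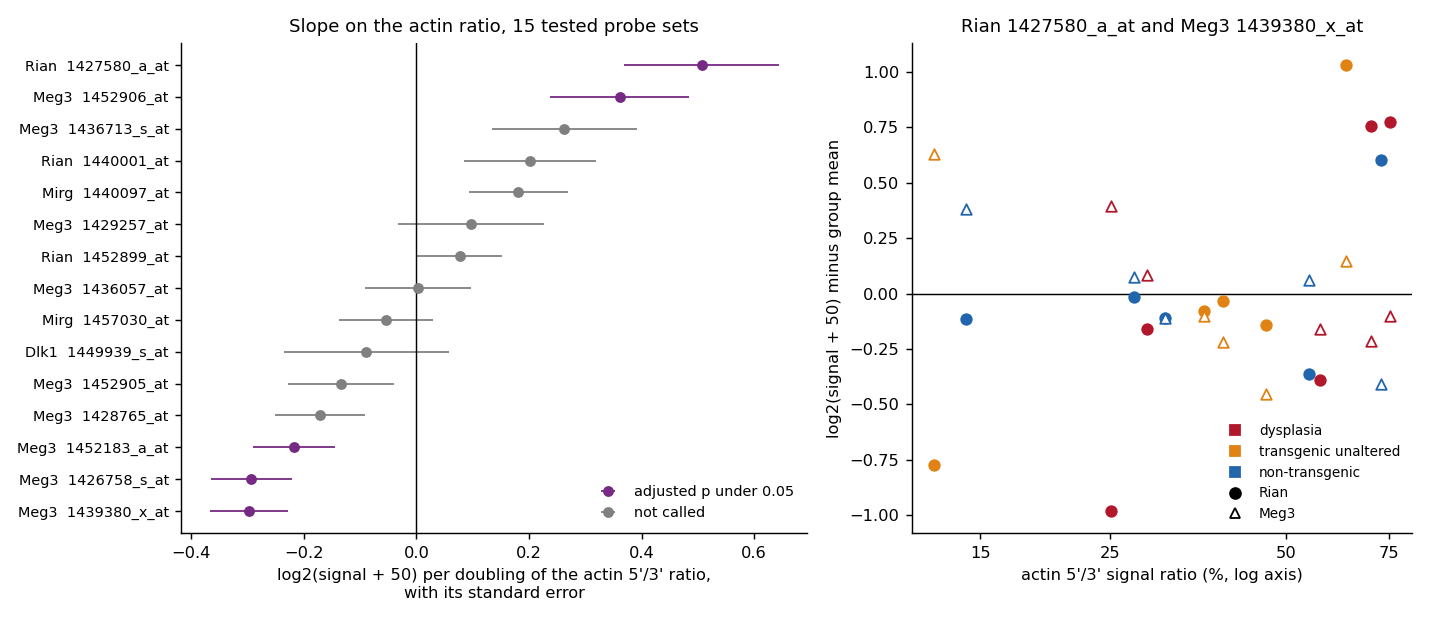
Left, slope of log2(signal + 50) per unit of the log2 actin 5′/3′ ratio with its standard error for the 15 tested probe sets, purple where the adjusted p is under 0.05 without a block. Right, deviation of 2 of them from the group mean on each array against the ratio (%, log axis); Rian 1427580_a_at (filled circles) has a slope of 0.51, not called with the array number as a random block, and Meg3 1439380_x_at (open triangles) one of -0.30, called with it.

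The probe sets with and without that call are described apart. The members were chosen by their levels in the groups, so a difference on both sides carries no information on RNA integrity. The part of RNA integrity in the differences was not tested. The 10 tested probe sets without a called slope had median log2 differences of 2.24 for dysplasia over transgenic, 3.10 for dysplasia over non-transgenic and 0.59 for transgenic over non-transgenic tissue. The 5 with a called slope had 2.74, 3.97 and 1.11. With the actin ratio as a covariate the log2 differences of dysplasia over transgenic tissue were 2.09 for Dlk1, 2.87 for Meg3, 3.07 for Rian and 2.62 for Mirg.

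Within groups, the members followed each other unevenly from array to array. The correlations below are descriptions over 15 arrays after the group mean was removed. By the methods, dysplasia and transgenic arrays come from the same mice, and all arrays share the scaling and the order of the actin ratio. Rian and Mirg, both host transcripts of small RNAs, went together most closely, with a Pearson r of 0.711 (Spearman 0.661). Dlk1 and Rian, of opposite parental origin, had 0.609 (0.625). Meg3 and Rian, both maternal, had only 0.0803 (0.0786), Meg3 and Mirg 0.386 (0.464), Dlk1 and Mirg 0.351 (0.307), and Dlk1 and Meg3 0.252 (0.307). The order depended on the probe sets. With the second brightest probe set of each gene, r was 0.375 for Rian and Mirg, -0.158 for Dlk1 and Rian and -0.0785 for Meg3 and Rian.

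**Figure D4:**
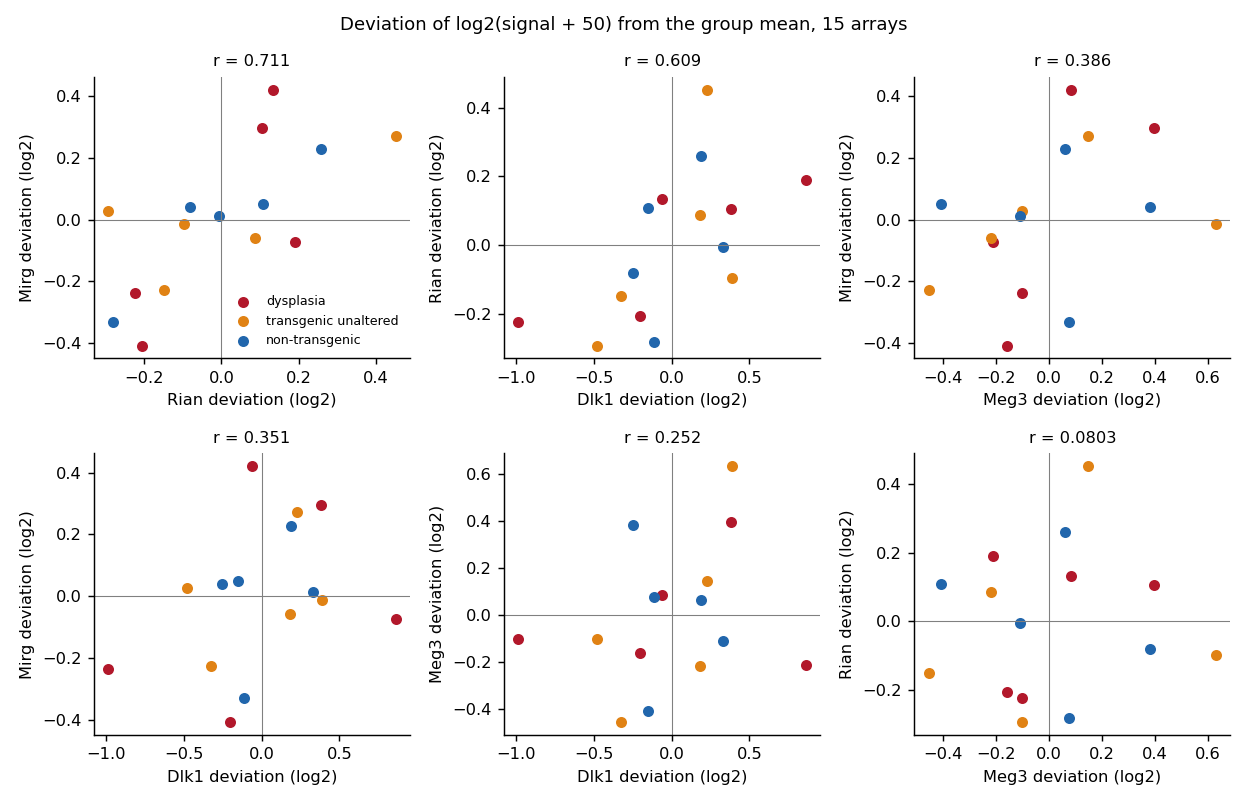
Deviation of log2(signal + 50) from the group mean for each pair of genes, brightest probe set of each, 1 point per array with the group by colour. The points lie nearest to a rising line for Rian and Mirg (r = 0.711) and show no trend for Meg3 and Rian (r = 0.0803).

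The protein-coding genes on either side of the domain were also read. Of 19 flanking genes, 15 were tested, and against transgenic tissue 0 were higher and 3 lower in dysplasia in limma (33.2% of all tested probe sets were called in either direction, and 2 were higher and 3 lower at an unadjusted p under 0.05). Eml1, a microtubule-binding protein, had 109.6 ± 22.9 in dysplasia and 370.2 ± 41.6 in transgenic tissue (SD, n = 5 each; log2 difference -1.40, SE 0.12, adjusted p = 9.52e-06 in limma). Evl, an actin regulator, was also lower (-0.92, adjusted p = 0.00387 in limma), and so was Ppp2r5c, a phosphatase subunit (-0.40, adjusted p = 0.00371 in limma). The 15 differences ran between -1.40 and 0.27, with a median of 0.10. Against non-transgenic tissue, Tecpr2 was higher in dysplasia (0.37, adjusted p = 0.0325 in limma), and Eml1, Ppp2r5c and Cinp were lower (44.0% of all tested probe sets in either direction). Between transgenic and non-transgenic tissue 0 of 15 were called in limma (1.26% of all), with 1 higher and 1 lower at an unadjusted p under 0.05. The lists of this and the next paragraphs were chosen with results of these data known. Rtl1, Begain and Traf3 had no probe set of their own in the annotation, and Degs2 and Ankrd9 were below the signal limit.

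**Figure D5:**
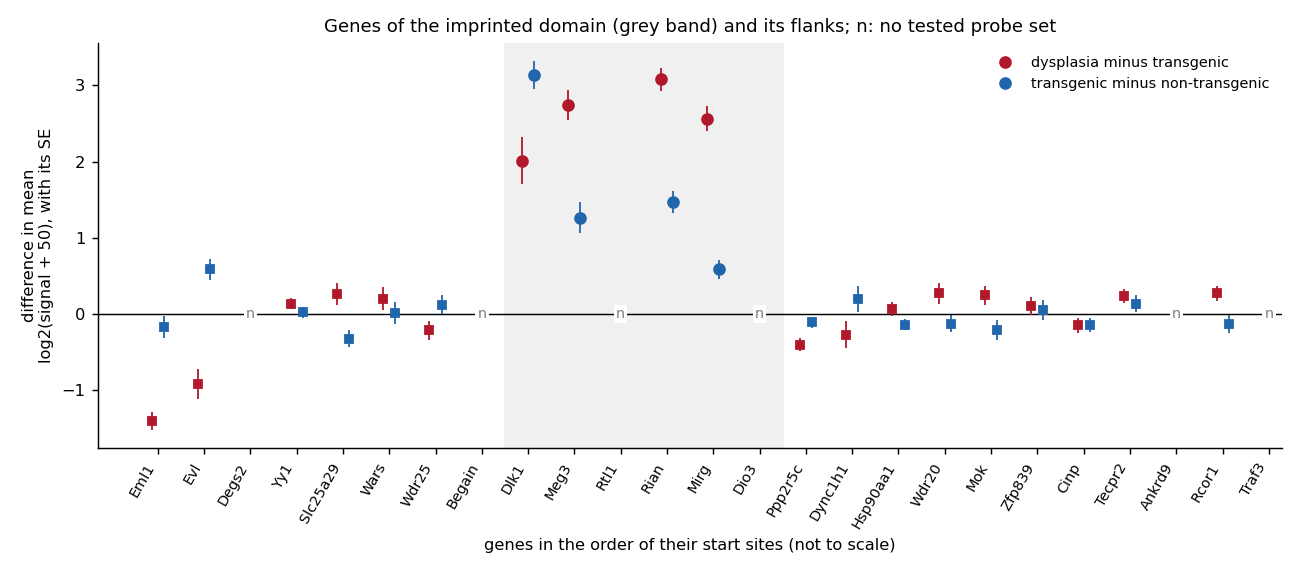
Difference in mean log2(signal + 50) with its standard error for dysplasia minus transgenic (red) and transgenic minus non-transgenic tissue (blue), for genes in the order of their start sites on the chromosome, not to scale. Grey marks the imprinted domain and n a gene with no tested probe set; the 4 measured genes inside it lie at 2.01 to 3.08 in red, and the flanks at -1.40 to 0.27.

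Imprinted genes of other loci moved both ways. Of 16 tested, 1 was higher and 5 lower in dysplasia than in transgenic tissue (33.2% of all tested probe sets in either direction), with a median log2 difference of -0.08. Phlda2, a growth-restraining gene of the placenta, was the one that rose, with 510.0 ± 97.3 in dysplasia and 100.3 ± 30.1 in transgenic tissue (SD, n = 5 each; 1.90, adjusted p = 1.21e-05 in limma). Igf2, the fetal growth factor, fell (-0.92, adjusted p = 1.11e-04 in limma), as did Ndn, a growth suppressor of neurons (-1.30, adjusted p = 1.16e-04), and Grb10, an inhibitor of insulin signalling (-0.99, adjusted p = 1.81e-04). Against non-transgenic tissue 1 was higher and 7 lower in dysplasia (44.0% of all tested probe sets in either direction). Between transgenic and non-transgenic tissue 0 were called in limma, with 0 higher and 3 lower at an unadjusted p under 0.05.

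Genes that set or keep methylation imprints moved both ways, with 4 higher and 3 lower of 12 tested in dysplasia against transgenic tissue (15.3% of all tested probe sets higher, 33.2% in either direction). Aff3, which binds the control regions of this domain in mouse embryonic stem cells, had 371 ± 124 in dysplasia and 1499 ± 254 in transgenic tissue (SD, n = 5 each; -1.91, adjusted p = 2.54e-05 in limma). Zfp57, a zinc finger protein that protects imprints in the embryo, was higher, with 442.5 ± 105 in dysplasia and 205 ± 44.4 in transgenic tissue (SD, n = 5 each; 0.93, adjusted p = 0.00194 in limma). Uhrf1, which brings the maintenance methyltransferase to replicated DNA, was higher too (0.84, adjusted p = 0.00348 in limma), as was Tet2, an enzyme that oxidises methylated cytosine (0.58, adjusted p = 0.00376). Against non-transgenic tissue 6 were higher and 4 lower in dysplasia (20.7% of all tested probe sets higher, 44.0% in either direction). Between transgenic and non-transgenic tissue 0 were called in limma, with 1 higher and 1 lower at an unadjusted p under 0.05. Methylation itself was not measured.

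Notch genes are given because Dlk1 is related to the Notch ligands. Of 14 tested, 1 was higher and 7 lower in dysplasia than in transgenic tissue (33.2% of all in either direction). The receptors Notch4 (-1.68, adjusted p = 6.55e-05 in limma) and Notch3 (-0.86, adjusted p = 1.55e-04) were lower, as were the target Hey1 (-1.74, adjusted p = 5.41e-04) and the ligand Dll1 (-1.12, adjusted p = 8.69e-04). The ligand Jag1 was higher (0.63, adjusted p = 0.00252 in limma); it was named after its value was seen. Against non-transgenic tissue 2 were higher and 9 lower in dysplasia (44.0% of all in either direction). Between transgenic and non-transgenic tissue 0 were called, with 0 higher and 1 lower at an unadjusted p under 0.05. Endothelial markers moved with these genes: 10 of 10 were lower in dysplasia than in transgenic tissue, and their summed signal was 17520 to 23543 in dysplasia, 46965 to 62774 in transgenic tissue and 50768 to 68017 in non-transgenic lung. Their part in the Notch values was not tested. Thyroid hormone genes are given because Dio3 inactivates the hormone. In dysplasia against transgenic tissue 0 were higher and 4 lower of 5 tested (33.2% of all in either direction). Among the lower ones were the transporter Slc16a10 (-0.91) and the receptor Thra (-0.67).

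Markers of other cells were set beside the rise of the members. Between dysplasia and transgenic tissue 33.2% of all tested probe sets were called in either direction, and 15.3% were called higher. Between transgenic and non-transgenic tissue these shares were 1.26% and 1.17%. Dlk1 is known from neuroendocrine and mesenchymal cells and from fetal liver. Of 9 neuroendocrine markers, 2 were tested, Syp and Ddc, and both were lower in dysplasia. Both had means below 100 in dysplasia and passed the signal limit through the other groups, so nothing is read from their direction. Their summed signal was 132 to 162 in dysplasia, 249 to 424 in transgenic tissue and 443 to 529 in non-transgenic lung. The other 7 were not tested. Of these, Scg5 averaged 45.3 in dysplasia and 21.4 in transgenic tissue, and Uchl1 60.3 and 87.0, all means below 100. Of 9 tested fibroblast markers, 0 were called higher and 3 lower in dysplasia than in transgenic tissue. The called ones were Pdgfra, Tcf21 and Mfap4. Col1a2, Lum and Pdgfrb were lower without a call, and Col1a1 (ratio 1.02), Col3a1 (1.26) and Dcn (1.44) were not lower. The summed signals of the 9 were 27876 to 35960 in dysplasia, 44947 to 54602 in transgenic tissue and 50541 to 54623 in non-transgenic lung. Of 9 hepatocyte markers, 2 were tested, Alb and Apoa1, and both were higher in dysplasia. Both had means above 100 in dysplasia only and passed the signal limit through it, so nothing is read from their direction. Their summed signal was 358 to 801 in dysplasia, 68.7 to 103 in transgenic tissue and 52.5 to 84.2 in non-transgenic lung, and the other 7 were not tested. Of these, Apoa2 averaged 73.0 in dysplasia and 58.7 in transgenic tissue, Ahsg 38.6 and 6.35, and Fgb 1.26 and 1.18. Ttr averaged 6.58 and 11.7, Tat 17.65 and 21.7, and Cps1 14.4 and 17.3, and Serpina1a had no probe set. Alveolar type 2 markers had 0 of 7 called in limma between dysplasia and transgenic tissue (1 higher and 0 lower at an unadjusted p under 0.05), with a median of 0.11. Macrophage markers were 0 higher and 6 lower of 7 tested in dysplasia than in transgenic tissue, and 3 of 7 were higher in transgenic than in non-transgenic tissue: Cd68 (0.96, adjusted p = 0.0107), Mrc1 (1.04, adjusted p = 0.00786) and Siglecf (1.13, adjusted p = 0.0342, all in limma). Their summed signal was 11500.5 to 14554 in dysplasia, 19576 to 22043 in transgenic tissue and 13289 to 18134 in non-transgenic lung. Of 5 tested smooth muscle markers, 0 were higher and 4 lower in dysplasia than in transgenic tissue, and 1 was lower in transgenic than in non-transgenic tissue. Their summed signal was 3111 to 6142 in dysplasia, 6265 to 8284 in transgenic tissue and 8346 to 10351 in non-transgenic lung. The part of these cells in the levels of the members was not tested.

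Genes outside the domain were ranked by the likeness of their profiles to the brightest probe sets of Dlk1, Meg3 and Rian over the 15 arrays. Likeness was the root mean square difference of log2(signal + 50) after each profile was centred, so that a small value means a close profile. For Meg3 the nearest of these genes were Atp13a4 (0.295), Stk39 (0.314), Afp (0.324), Tmem213 (0.351) and Lad1 (0.369), against 0.41 for Rian, 0.47 for Mirg, 0.892 for Dlk1 and a median of 1.73 over all tested probe sets. For Rian they were Atp13a4 (0.206), Fetub (0.262), Tmem213 (0.295), St8sia6 (0.314) and Stk39 (0.315), and Meg3 1452183_a_at lay among them at 0.276. Dlk1 had less close neighbours, Dmkn (0.43), Cd177 (0.603), St8sia6 (0.618), Cldn2 (0.745) and Fetub (0.753), and Rian followed at 0.769. Dmkn, a secreted epithelial protein, had log2 differences of 1.89 for dysplasia over transgenic and 2.68 for transgenic over non-transgenic tissue, so that, as in Dlk1, the difference was larger between transgenic and non-transgenic tissue. Afp, the fetal serum protein, had 2212 ± 424 in dysplasia, 353 ± 97.1 in transgenic tissue and 139 ± 36.6 in non-transgenic lung (SD, n = 5 each). It was called in all 3 comparisons (2.50, adjusted p = 2.63e-06, for dysplasia over transgenic tissue; 1.08, adjusted p = 0.0135, for transgenic over non-transgenic tissue, both in limma). Of the other tested oncofetal genes, Gpc3 was lower in dysplasia (-1.87 against transgenic tissue) and Igf2bp3 was not called.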

How the data were processed

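Microdissected lung RNA of 15 samples was amplified and hybridised to 1 Affymetrix array each. The authors made the deposited intensity values with GCOS, which gives 1 linear signal per probe set and was set to a target of 500; its version is not given in the sources. The mean after trimming 2% at each end was checked to be 500 on every array.

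From these signals, 64 control probe sets were removed. Probe sets with a mean above 100 over the 15 arrays (21658 of 45037) were tested on log2(signal + 50) with limma 3.58.1 in R 4.3.3, 2 groups at a time and unpaired as in the study's methods, with Benjamini-Hochberg adjustment over all tested probe sets and a threshold of 0.05. The fit was tested on simulated data. SAM, the test of the study, was not run. Groups, and the numbers 1 to 5, came from the sample titles.

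The member genes and the gene lists were chosen with earlier results of these data known. The text names all member probe sets, up to 4 called genes per list and comparison by p, and the 5 genes most like Dlk1, Meg3 and Rian. Some list genes without a call are named as well. Gene names came from the array annotation, and sequences from RefSeq. The methods take dysplastic and unaltered tissue from the same mouse, and same-numbered arrays of these groups correlated by 0.612 on average in their deviations from the group means (different numbers -0.15). Same-numbered transgenic and non-transgenic arrays, of different mice, correlated by 0.135 to 0.793. The array number was therefore also fitted as a block. The number of arrays limits the precision.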

Additional observations from a re-analysis of the deposited data

Results flagged for a closer look

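Of 57 groups of 5 arrays (19 member probe sets in 3 groups), 3 held an array far from the others, where chance gives about 1 in 20. The count is near that share, so nothing is read from it. Meg3 1436713_s_at read 296.1 on transgenic 2, against 143.4 on the next and 114.3 on the lowest transgenic array. Meg3 1452906_at read 104.0 on the same array, against 16.4 on the next and 8.5 on the lowest. Both probe sets are of Meg3, so these flags are not independent. Transgenic 2 is the array with the conflicting tissue label, and it had the highest actin 5′/3′ ratio of its group (63.4%); the part of either in these values was not tested. Mirg 1440097_at read 69.3 on non-transgenic 1, against 37.3 on the next and 27.0 on the lowest non-transgenic array, all below 100.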

How the results depend on the processing

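Of 1332 values recomputed under other settings, 1260 kept their direction and call or stayed within the spread, 55 moved and 17 lost their call. Some values changed sign, among them the correlation of Dlk1 and Rian, from 0.609 to -0.158 with the second brightest probe set of Rian. For the brightest probe sets of Dlk1, Meg3, Rian and Mirg, 235 of 252 log2 differences kept their call. The exceptions were Mirg between transgenic and non-transgenic tissue, called in 5 of 21 settings at 0.48 to 1.04, and Meg3 in the same comparison, called in 20 of 21 and not with Xist as a covariate. Dlk1 ran between 1.80 and 2.26 for dysplasia over transgenic and between 3.04 and 4.26 for transgenic over non-transgenic tissue. With the array number as a replicate block, 15, 15 and 7 member probe sets were called in the 3 comparisons. The 7 were not all the same ones: Mirg 1457030_at was lost and Rian 1427580_a_at gained.

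The comparison of transgenic with non-transgenic tissue was the least stable. All probe sets called numbered 272, against 110 with Xist and 506 with the actin ratio as a covariate and 118 to 291 with 1 array left out. Called member probe sets numbered 7, against 3 with Xist and 5 to 7 with 1 array left out. Genes called over the other lists numbered 6, against 3 with Xist, 12 with the actin ratio and 3 to 8 with 1 array left out (3 without non-transgenic 3 and 3 without transgenic 3). The actin slope, whose settings were chosen after seeing the data, was called for 5 member probe sets, for 2 with the array number of all groups or of dysplasia and transgenic tissue as a random replicate block, for 3 without a signal limit, and for 1 to 5 with 1 array number left out (3 without replicate 3 and 1 without replicate 5). The cause of these moves was not tested. Signals below 100 limit the ratios of Dlk1 and Mirg over non-transgenic tissue.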
